A study of Mus musculus with 4 samples.

Results

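The cadherin and protocadherin genes were examined in the SOX3 binding profile of mouse neural progenitor (NP) cells. Members were the protein-coding genes of the GENCODE vM1 annotation whose symbol is Cdh or Pcdh followed by a number, or starts with Pcdha, Pcdhb or Pcdhg. This gave 59 of 22367 protein-coding genes. The clustered protocadherins, 24 of these genes, were treated as 1 locus, which left 36 loci. SOX3 chromatin immunoprecipitation and sequencing (ChIP-seq) had been performed on 3 biological replicates with the R&D hSOX3 antibody AF2569. The NP cells came from R1 embryonic stem cells, a mouse line, kept as monolayers in N2B27 for 4 days. There was a single condition with no genetic change named in the labels, so no treated and control groups were compared, and the input DNA prepared without antibody was not analysed here. The peak lists of replicates 1, 2 and 3 held 18816, 8096 and 40543 peaks. The lists give neither reads nor library depth, which is therefore unknown, nor expression, so the labelled cell type could not be checked against its markers.

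Where peaks from the 3 lists lay over one another by at least 1 bp, the stretch under them all was called a common site, and 5537 were found in the genome. Sites were assigned to a locus when they overlapped its gene body or the 50 kb to either side, here called its window. The score of a peak was read as 10 times the negative log10 of its p-value, since the lowest score in each list is 50 and the stated threshold 1e-05. As scores are not comparable between libraries, each was also given as a percentile, the share of the same list's peaks with a lower score.

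Cadherins are calcium-dependent adhesion molecules of the cell surface. The classical cadherins of type I and type II hold like cells together and bind catenins through their cytoplasmic tail, which ties them to the actin cytoskeleton. Protocadherins share the extracellular cadherin repeats but not this tail. They occur either as single genes, of which the delta protocadherins are the main group, or in the alpha, beta and gamma clusters, where many variable exons encode alternative extracellular parts used in neuronal recognition. Neural induction is known for the exchange of E-cadherin (Cdh1) for N-cadherin (Cdh2). SOX3 is an HMG-box transcription factor of neural progenitors that recognises short words of the form ACAA.

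Sequences are shown for 1 site at each of 7 loci, the strongest there by its lowest percentile over the replicates. They are stretches on which all 3 replicates called a peak, and they show where SOX words lie in them. All are from the plus strand of mm9 (NCBIM37), over at most 300 bases around the middle of the site. Capitals mark the SOX words AACAAA or AACAAT and GACAAA or GACAAT, the POU octamers ATGCAAAT and ATGCTAAT, and the joined SOX/POU motif, each on either strand. Words on the minus strand therefore read as their reverse complement. The Cdh4, Cdh11, Cdh8, Cdh23 and Pcdh9 sequences lie in introns, the Pcdh18 sequence is intergenic, and the Cdh10 sequence is at the promoter.
Cdh4, chr2:179306001-179306300: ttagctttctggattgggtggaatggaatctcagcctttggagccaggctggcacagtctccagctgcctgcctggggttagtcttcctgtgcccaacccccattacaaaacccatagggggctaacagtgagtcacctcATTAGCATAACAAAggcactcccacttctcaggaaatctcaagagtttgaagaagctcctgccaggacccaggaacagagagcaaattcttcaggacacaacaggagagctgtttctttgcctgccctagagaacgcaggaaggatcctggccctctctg
Cdh11, chr8:105250552-105250851: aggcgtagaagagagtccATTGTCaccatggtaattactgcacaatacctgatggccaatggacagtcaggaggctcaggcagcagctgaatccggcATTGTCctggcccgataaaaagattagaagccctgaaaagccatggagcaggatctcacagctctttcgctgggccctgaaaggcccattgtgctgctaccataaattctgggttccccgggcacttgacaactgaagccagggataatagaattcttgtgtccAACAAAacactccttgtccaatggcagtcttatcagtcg
Cdh8, chr8:101804397-101804654: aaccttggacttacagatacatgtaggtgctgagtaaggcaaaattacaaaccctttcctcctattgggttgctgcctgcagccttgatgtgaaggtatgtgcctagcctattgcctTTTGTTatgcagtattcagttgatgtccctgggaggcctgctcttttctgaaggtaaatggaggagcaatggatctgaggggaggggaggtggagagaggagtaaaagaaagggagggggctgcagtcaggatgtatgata
Cdh10, chr15:18748329-18748560: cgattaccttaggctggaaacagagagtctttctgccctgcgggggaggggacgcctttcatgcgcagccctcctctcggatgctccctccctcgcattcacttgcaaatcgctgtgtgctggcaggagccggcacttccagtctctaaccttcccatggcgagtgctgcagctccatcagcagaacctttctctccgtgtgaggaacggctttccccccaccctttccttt
Cdh23, chr10:59853383-59853603: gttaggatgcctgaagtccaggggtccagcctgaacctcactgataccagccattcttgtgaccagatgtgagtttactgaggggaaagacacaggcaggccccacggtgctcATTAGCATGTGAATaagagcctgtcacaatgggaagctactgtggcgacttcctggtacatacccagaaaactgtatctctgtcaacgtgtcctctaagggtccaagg
Pcdh9, chr14:93482434-93482733: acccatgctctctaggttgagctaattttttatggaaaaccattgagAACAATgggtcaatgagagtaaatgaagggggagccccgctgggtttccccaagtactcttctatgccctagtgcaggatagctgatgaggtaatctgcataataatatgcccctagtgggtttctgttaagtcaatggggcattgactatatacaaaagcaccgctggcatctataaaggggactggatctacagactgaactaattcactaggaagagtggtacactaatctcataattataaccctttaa
Pcdh18, chr3:49503907-49504206: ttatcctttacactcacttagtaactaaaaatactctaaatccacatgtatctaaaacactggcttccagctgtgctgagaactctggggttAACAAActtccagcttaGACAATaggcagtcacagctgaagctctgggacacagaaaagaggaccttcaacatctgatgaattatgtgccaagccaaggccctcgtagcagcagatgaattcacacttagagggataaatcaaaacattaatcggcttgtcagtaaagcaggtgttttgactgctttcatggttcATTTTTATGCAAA

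The Cdh4 sequence held the POU octamer and AACAAA side by side on opposite strands, at bases 141 and 149 of the printed stretch, and together they matched the joined SOX/POU motif. The joined motif also matched at base 288 of the Pcdh18 sequence and at base 115 of the Cdh23 sequence. The Cdh11 sequence held 3 SOX words, whereas the Cdh8 and Pcdh9 sequences held 1. In the Cdh10 sequence none of the marked words was found.

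A further pair of sequences is shown for Pcdh19, a delta protocadherin, chosen after its values were seen, because its sites followed coding exons. Both are from the plus strand of mm9, while the gene is transcribed from the minus strand. Each covers the replicate 3 peak, and here capitals mark the bases of the coding exon instead of words.
Pcdh19 coding exon 2, chrX:130216626-130216786: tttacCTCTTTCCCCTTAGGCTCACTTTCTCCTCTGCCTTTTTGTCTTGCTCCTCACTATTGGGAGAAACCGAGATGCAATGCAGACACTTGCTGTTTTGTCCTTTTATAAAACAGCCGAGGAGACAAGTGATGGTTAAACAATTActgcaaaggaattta
Pcdh19 coding exon 4, chrX:130167433-130167498: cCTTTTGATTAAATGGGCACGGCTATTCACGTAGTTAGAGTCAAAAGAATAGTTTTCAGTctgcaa

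In coding exon 2 the replicate 3 peak, 161 bp wide, reached 5 bases past 1 edge of the exon and 15 past the other, around 141 coding bases. In coding exon 4 it was 66 bp wide and reached 1 and 6 bases past the edges, around 59 coding bases.

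Of the 36 loci, 20 had at least 1 common site, 55.6% with a 95% Wilson interval from 39.6% to 70.5%. The background was 28.7% of all 22367 protein-coding genes. The member loci were longer, with a median of 114.739 kb against 15.427 kb. The share was therefore also set beside genes of the same length class. Among loci under 50 kb, 4 of 10 had a common site against 26.1% of such genes. Between 50 and 200 kb it was 5 of 13 loci against 34.0% of genes. Over 200 kb it was 11 of 13 loci against 54.6% of genes. This class has no upper limit, so lengths may still differ within it, and it holds the clusters as 1 locus of 911.589 kb. With Pcdh19 included, the member share was above the background in each length class, with few loci per class and no test. Between 50 and 200 kb the margin was small, 38.5% against 34.0%. The 5 loci there include Pcdh19 (106.131 kb), whose sites are questioned below, and the margin in this class rests on it. With Pcdh19 left out, 19 of 35 loci had a common site. A peak of replicate 1 lay in 27 of the 36 windows (75.0%, background 67.7%), a peak of replicate 2 in 23 (63.9%, background 38.3%) and a peak of replicate 3 in 33 (91.7%, background 84.6%).

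**Figure D1:**
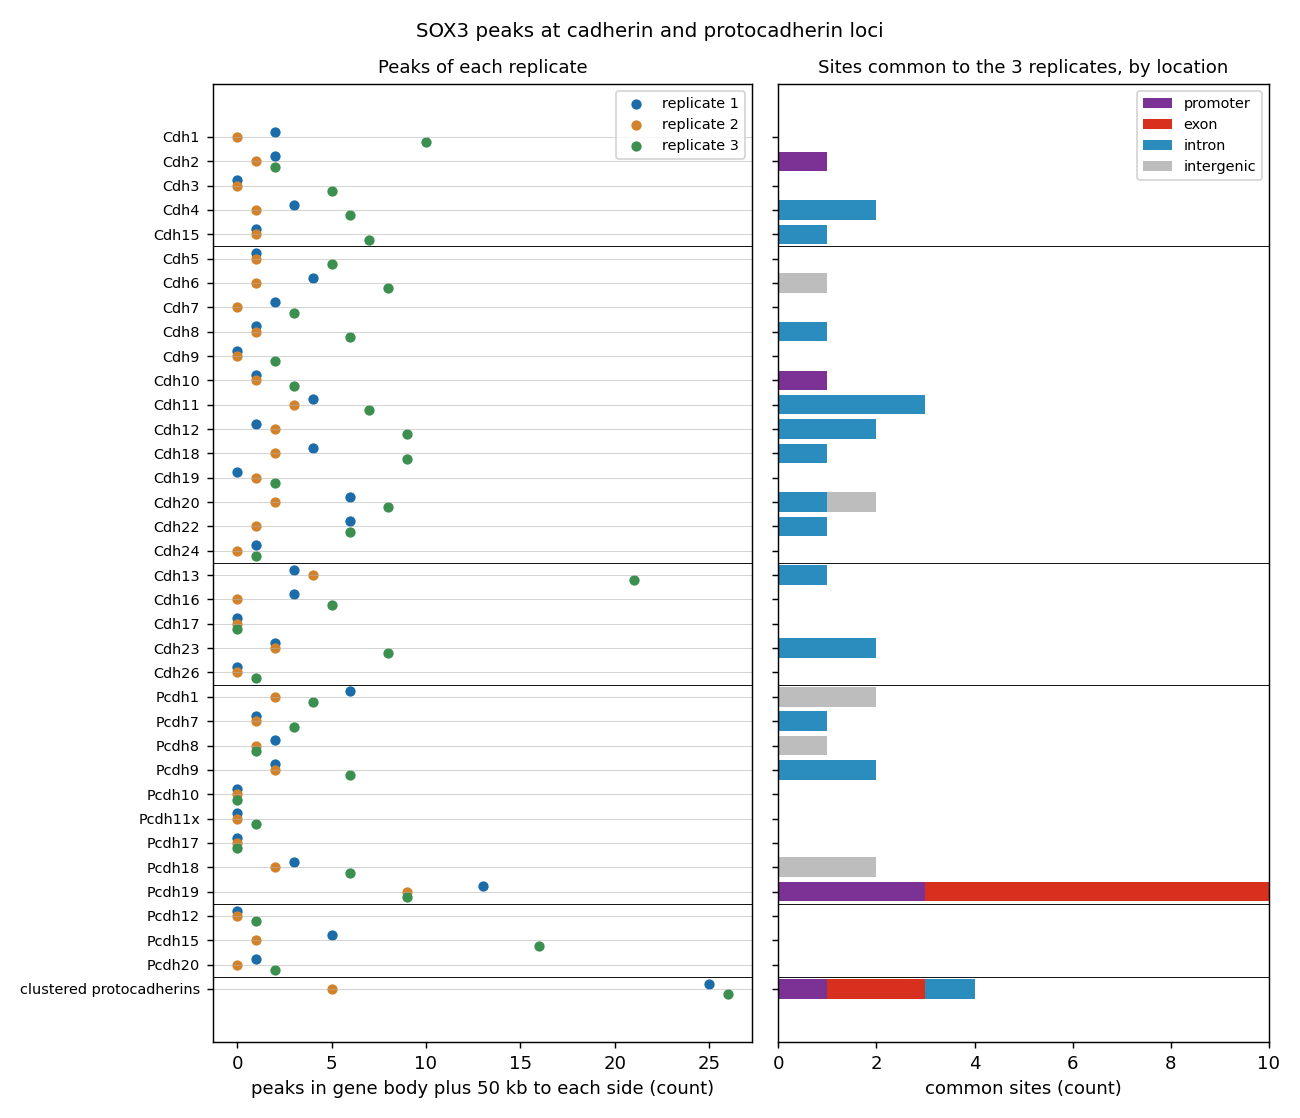
Peaks of each replicate (left, count per window of gene body plus 50 kb to each side) and common sites of the 3 replicates by location (right, count) at the 36 loci, grouped from top to bottom as type I, type II and atypical cadherins, delta and other protocadherins, and the clusters. Pcdh19 had the most common sites, 10, all at exons or promoters, and 15 of the 19 cadherin sites were in introns.

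The windows held 41 common sites, 3.02 per Mb with an exact Poisson interval from 2.17 to 4.09, against 2.58 per Mb over the windows of all protein-coding genes. Pcdh19 alone held 10 of the 41. Without Pcdh19 the density was 2.32 per Mb (1.57 to 3.29). Both intervals cover the value of all genes. Of the 20 loci with a site, 10 had 1 common site, 7 had 2, Cdh11 had 3, the clustered protocadherins had 4 and Pcdh19 had 10. Having 10 or more common sites in the window was shared by 0.371% of protein-coding genes. Intervals here cover counting error only.

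By role, 3 of 5 type I cadherins, 8 of 13 type II cadherins, 2 of 5 atypical cadherins, 6 of 9 delta protocadherins, none of 3 other protocadherins (Pcdh12, Pcdh15 and Pcdh20) and the clusters had a common site. The cadherin loci together held 19 sites at 13 of 23 loci, and 15 of these 19 sites lay in introns, the Cdh15 site in an intron of another gene. In the windows of genes over 200 kb long 73.0% of common sites were in introns. The delta protocadherins held 18, of which 8 were outside Pcdh19.

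Pcdh19 (ENSMUSG00000051323, chrX:130117402-130223532, minus strand) encodes a delta-2 protocadherin of the developing brain. Its 10 common sites all lay on coding exons, with 89.4% to 100% of their bases coding, and each of its 6 coding exons carried at least 1. The 3 sites on coding exon 1 lay within 2000 bp of a coding start and are therefore counted as promoter sites by location. Among the 5537 common sites, 1.99% were mostly coding. No other protein-coding gene had 5 or more common sites mostly in its coding sequence, the 1 such gene being 0.00447% of genes. Likewise, of 16900 genes with 3 or more coding exons, Pcdh19 was the only one with a site on every coding exon, 0.00592%.

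Peaks covered 34.4%, 39.5% and 39.9% of the 3435 coding bases of Pcdh19 in replicates 1, 2 and 3. The untranslated exon parts, 6838 bases, were covered over 2.63% in replicate 1 and 0% in replicates 2 and 3. Introns, 95839 bases, were covered over 0.659%, 0.235% and 0.323%. In every replicate the peaks thus lay mostly on the coding bases, which make up a small part of the gene. Replicate 1 had 3 further peaks off the coding exons, with scores of 74.06, 135.37 and 85.17, and neither other replicate had one. Not all peaks on coding exons ended near the exon edge. In replicates 2 and 3 the peak on coding exon 5 reached 106 bases past it, and the peaks on coding exon 6 reached 57 and 55 bases past it. In replicate 3 a peak on coding exon 1 reached 93 bases past the edge, and in replicate 1 those on exons 2 and 4 reached 41 and 40. Plasmid or cDNA sequence of Pcdh19 would lack introns too, and its part in these peaks was not tested. It is therefore not shown that the 10 sites, including those that rank high below, are SOX3 bound to chromatin.

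By lowest percentile the strongest member site was the one on coding exon 2 of Pcdh19 (chrX:130216626-130216782). Its scores were 1234.2, 917.09 and 2571.09 in replicates 1, 2 and 3, which ranked 104 of 18816, 52 of 8096 and 36 of 40543. By its lowest percentile over the replicates, 99.4, it stood at place 49 of the 5537 common sites. The peaks covered 100% of this exon in each replicate.

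Coding exon 5 carried a site with scores of 697.44, 391.56 and 988.11 in replicates 1, 2 and 3, at percentiles of 98.1, 95.2 and 99.5. Coding exon 3 carried a pair of sites split by a gap in replicate 1, where peaks of 554.86 lay to either side, while replicates 2 and 3 had a single peak across both with scores of 388.28 and 874.87. The percentiles of both were at least 95.1 in each replicate and 99.3 in replicate 3. Coding exon 6 carried a site of 721.31, 365.43 and 900.55, at percentiles of 98.3, 94.5 and 99.4, and a narrow one of 236.78, 55.87 and 164.1. These exons were all near the top of each list except the narrow site, whose replicate 2 percentile was 17.4.

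Coding exon 1, the large first exon that encodes the cadherin repeats, is 2147 bp long, and peaks covered 19.1%, 21.2% and 22.3% of it. It carried 3 separate sites. The one nearest its 5′ edge scored 538.56, 274.7 and 645.11 at percentiles of 96.8, 91.3 and 98.8, the middle one 189.53, 78.42 and 188.38, and the one at its 3′ edge 193.81, 102.9 and 140.41. Coding exon 4, only 59 bp long, was covered over 100% in each replicate, with scores of 133.81, 117.35 and 304.71. The first exon was thus the least covered by share, although it has the most coding bases.

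**Figure D2:**
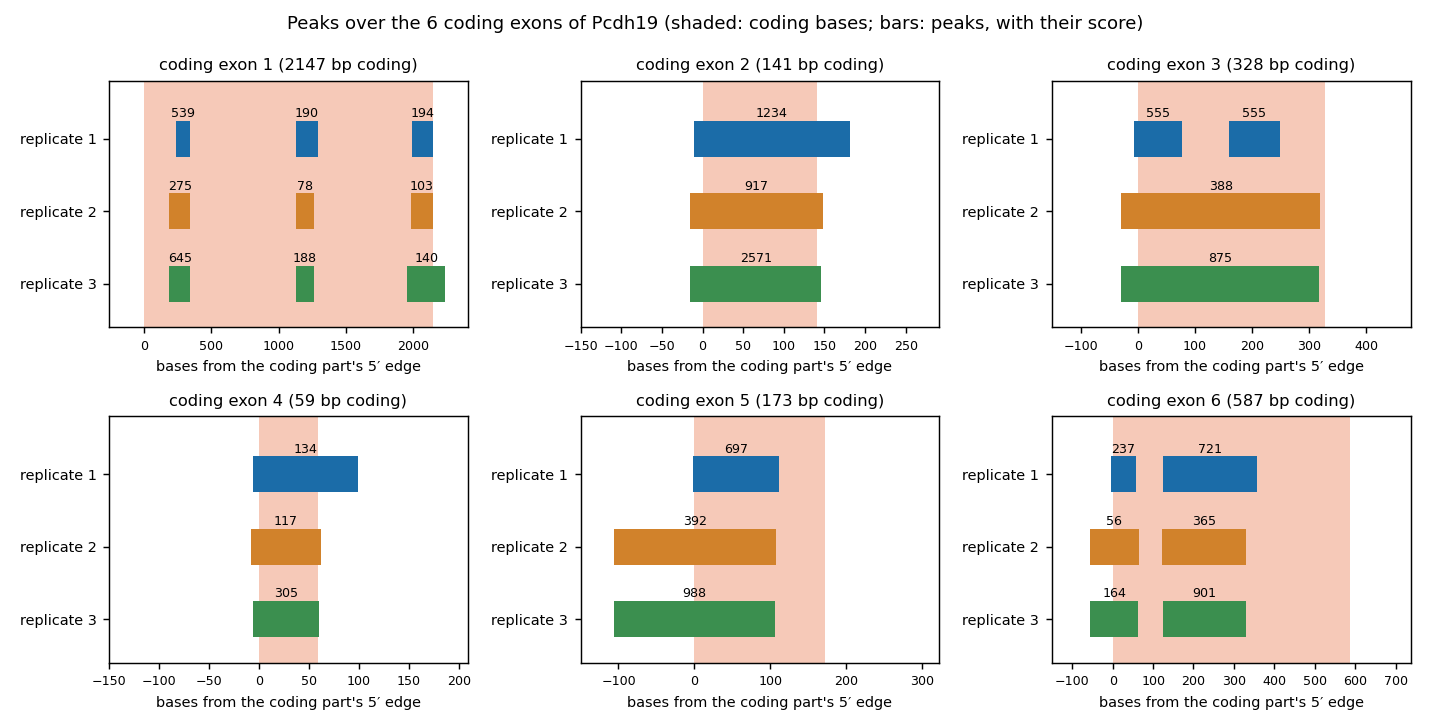
Peaks of each replicate (bars, with their score above) over the 6 coding exons of Pcdh19, in bases from the 5′ edge of the coding part (shaded). All bars touch coding bases, and exons 2 and 4 are covered over 100% in all 3 replicates, while at exon 5 the bars of replicates 2 and 3 reach 106 bases into the intron.

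At least 1 edge lay within 10 bp of a coding edge in 6 of the 10 Pcdh19 sites, and both edges did in 1, on coding exon 4. At least 1 edge did so in 30 of the other common sites, of which 251 touched coding sequence, and for none of the 2 other member sites that did. The Pcdh19 sites were narrow, 62 to 205 bp with a median of 105.5 bp, against a median of 260 bp over the other common sites. None of their 50-base sequences occurred in more than 1 place of the genome (0%). The words AACAAA or AACAAT were found in 2 of the 10 sites.

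Cdh4, R-cadherin, had the strongest site among the cadherins (chr2:179306001-179306300), in intron 2 and 129 kb from the 5′ end of the gene. Its scores were 565.15, 406.06 and 804.23 in replicates 1, 2 and 3, at percentiles of 97.1, 95.5 and 99.2, and it stood at place 351 of all common sites. Its sequence holds the joined SOX/POU motif, as do the Cdh23 and Pcdh18 sequences shown. A stretch of 41 bp beside this Cdh4 site (chr2:179305953-179305993) was a second common site. It was so only because replicate 1 had a separate small peak there, with a score of 53.03 at percentile 9.89.

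Cdh2, N-cadherin, the classical cadherin of the neural tube, had 1 common site, 336 bp wide. It lay within intron 2 of the transcript with the most exons and 183 bp from the start of a shorter coding transcript, so it was counted as a promoter site, although it is 139 kb from the 5′ end of the gene. Its scores were 205.66, 119.79 and 295.24, at percentiles of 85.5, 69.9 and 96.2. The site was thus in the upper part of each list but at place 2150 of the common sites. It held both kinds of SOX word and a POU octamer, but not the joined motif.

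Cdh1, E-cadherin, had no common site. Its window held 2, 0 and 10 peaks of replicates 1, 2 and 3, and no peak of 1 replicate overlapped a peak of another. The scores were 52.28 and 52.89 in replicate 1 and from 51.38 to 84.03 in replicate 3. Cdh3, P-cadherin, its neighbour on the chromosome, had 0, 0 and 5 peaks, and shared 1 replicate 3 peak with the Cdh1 window. Cdh15, M-cadherin of muscle, had 1 site (93.9, 56.05 and 112.4), which lay 33.2 kb upstream in an intron of Acsf3. Both cadherins of epithelia were therefore without shared peaks, and the Cdh15 site was inside another gene.

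Among the type II cadherins, Cdh11, which is also known as OB-cadherin, had 3 sites, in introns 1 and 2. The one in intron 1 (chr8:105250481-105250922) scored 451.92, 290.22 and 533.81, at percentiles of 95.8, 91.9 and 98.4. The pair in intron 2 lay under a single replicate 3 peak of 635.76, with replicate 1 scores of 137.55 and 191.82 and replicate 2 scores of 146.96 and 211.92. Each of the 3 sites held AACAAA or AACAAT and also GACAAA or GACAAT.

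Cdh20, a type II cadherin, had a site in intron 1, which scored 431.83, 232.96 and 389.52 at percentiles of 95.5, 88.6 and 97.4. Its second site lay 17.3 kb downstream, with scores of 312.87, 157.94 and 233.27. The Cdh8 site (chr8:101804397-101804654) lay in intron 2, 136 kb from the 5′ end, and scored 460.98, 203.84 and 337.49 at percentiles of 95.9, 86.2 and 96.9. The Cdh6 site lay upstream of its gene, with scores of 254.18, 177.13 and 331.27. The better sites of these 3 cadherins stood at percentile 82.8 or above in every list.

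By the lowest percentile of the best site, the remaining type II loci stood below these. Cdh10 had the only site at the 5′ end of a type II cadherin, 257 bp upstream, with scores of 229.48, 143.11 and 238.5. Cdh12 had a pair of sites in intron 2 under 1 replicate 1 peak of 295.8, with replicate 2 scores of 69.8 and 101.71, and 67.3% of the 50-base sequences of the second occurred in more than 1 place. Cdh18 had a site inside the gene body (147, 121.61 and 230.62) and Cdh22 one in intron 7 (207.6, 83.88 and 125.12). Their replicate 2 percentiles ranged from 38.8 for the first Cdh12 site to 76.8 for Cdh10.

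Atypical cadherins lack the classical tail. Cdh23, a cadherin of the hair cell tip link, had sites in intron 31 (223.48, 128.19 and 203.67) and intron 13 (129.66, 79.67 and 169.38) of 71 exons. Cdh13, the GPI-anchored T-cadherin, had 3, 4 and 21 peaks of replicates 1, 2 and 3 in its window but only 1 common site, in intron 4, with scores of 280.05, 75.36 and 52.11. The 3 replicates ranked it differently, from percentile 12.3 in replicate 3 to 90.8 in replicate 1.

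Of the delta protocadherins other than Pcdh19, Pcdh1 had the strongest site by lowest percentile, an intergenic one 410 bp wide and 37 kb downstream of the gene. It scored 575.64, 470.63 and 820.46, at percentiles of 97.3, 96.8 and 99.3, and stood at place 246 of the common sites. A second site beside it was weaker, with scores of 94.45, 71.04 and 110.29. Pcdh9, a large delta-1 protocadherin, had its stronger site in intron 3, 805 kb from the 5′ end of the gene (593.24, 189.72 and 306.9), which scored above the Pcdh1 site in replicate 1. The other Pcdh9 site (69.17, 60.43 and 91.16) consisted entirely of sequence in more than 1 place (100%).

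Pcdh18 had a site 43.2 kb downstream (299.05, 138.53 and 314.73) and another 12.3 kb upstream (396.55, 102.23 and 176.14). The Pcdh7 site lay in intron 1 (83.42, 140.53 and 270.65), and the Pcdh8 site lay 42.2 kb upstream (111, 78.69 and 128.38). Neither lay among the stronger sites, with lowest percentiles of 54.1 and 47.3. Pcdh10 and Pcdh17, both delta-2 protocadherins, had no peak of any replicate in the window, and Pcdh11x had 1 peak, of replicate 3.

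**Figure D3:**
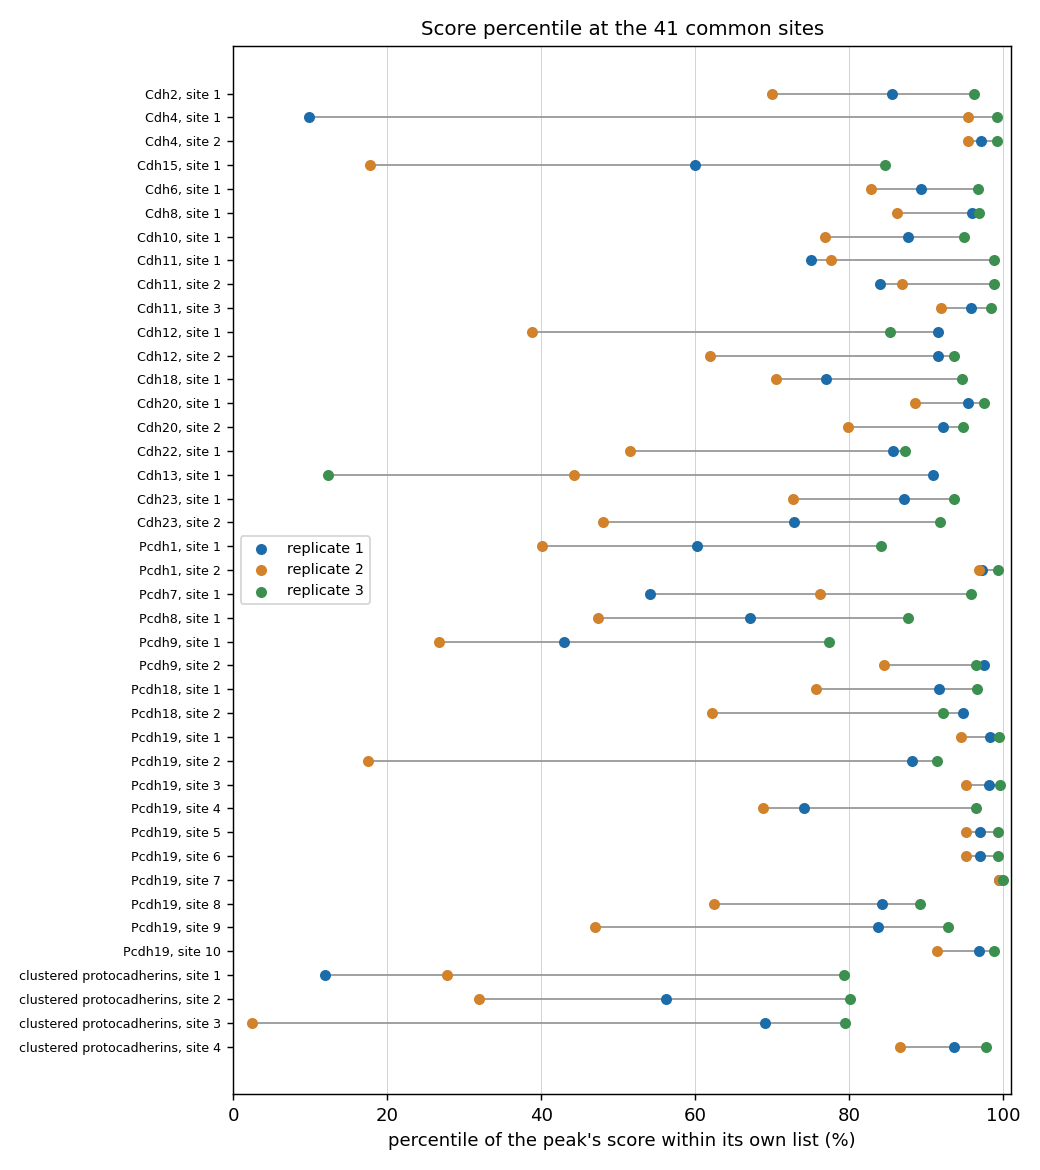
Percentile of the score within its own list (%) for the peaks of replicates 1, 2 and 3 (points, joined by a line) at each of the 41 common sites, ordered by locus. Pcdh19 site 7 on coding exon 2 lies at 99.4 or above in every list, while clustered protocadherin site 3 runs from 2.43 to 79.4.

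The 12 sites with the highest lowest percentile came from 7 loci, 6 of them from Pcdh19 and 1 each from Pcdh1, Cdh4, Cdh11, Cdh20, Cdh8 and the clustered protocadherins. In all, 9 sites were at or above the 90th percentile in each list, 6 of them in Pcdh19. The median of the lowest percentile was 70.5 over the 41 sites and 69.9 without Pcdh19, against 61.0 over all common sites. Across the 41 sites the scores of replicates 1 and 2 had a Spearman's rho of 0.67, those of 1 and 3 of 0.66 and those of 2 and 3 of 0.95, against 0.67, 0.65 and 0.90 over the other common sites. Without Pcdh19 they were 0.59, 0.49 and 0.95. Replicates 2 and 3 also shared the exact start of 11 of 46 overlapping peak pairs in these windows, while no pair with replicate 1 did, of 41 and 55. Exact starts were counted only in these windows, so it is not shown whether this is particular to them. Replicates 2 and 3 had the highest rho over the other common sites as well. Their greater likeness is given as a description, since sites share libraries.

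The clustered protocadherins lie on chromosome 18 (37089939 to 38001527, plus strand of mm9). In the annotation used, the alpha cluster is represented by 2 genes, Pcdha11, which spans it, and Pcdha3, the beta cluster by 21 genes and the gamma cluster by Pcdhgc5. The window held 25, 5 and 26 peaks of replicates 1, 2 and 3, of which 8, 5 and 9 overlapped a peak of another replicate. Of these peaks 11, 3 and 8 were mostly coding, against 2.25%, 1.98% and 2.02% of the whole lists, and 10, 2 and 8 were mostly multi-copy sequence, in which more than 50% of the 50-base sequences occur elsewhere in the genome. This share was not computed over the whole lists, but 17.4% of all common sites were mostly multi-copy, and 3 of the 41 member sites. Reads from multi-copy sequence can be placed in more than 1 location, so the multi-copy peaks are uncertain.

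The strongest clustered site lay in exon sequence of Pcdhgc5 near the 3′ end of the gamma cluster, 911 kb from the cluster start and with 0% coding and 0% multi-copy bases. It scored 354.7, 209.73 and 422.86, at percentiles of 93.6, 86.6 and 97.7, and stood at place 1014 of the common sites. A site 838 kb from the start lay on a coding exon of Pcdhgc5 (86.81, 63.82 and 97.1), and one in an intron 841 kb from the start scored 116.42, 50.64 and 95.63. The last, within 2000 bp of a Pcdha11 start, scored 53.5, 60.84 and 95.21, and 98.0% of its 50-base sequences occurred in more than 1 place. No common site lay in the beta cluster, where replicates 1, 2 and 3 had 5, 0 and 3 peaks, all of them mostly coding. The common sites were thus towards the ends of the locus, although replicates 1 and 3 also overlapped at 1 place in the beta cluster, and the highest score was in the gamma part in every replicate.

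**Figure D4:**
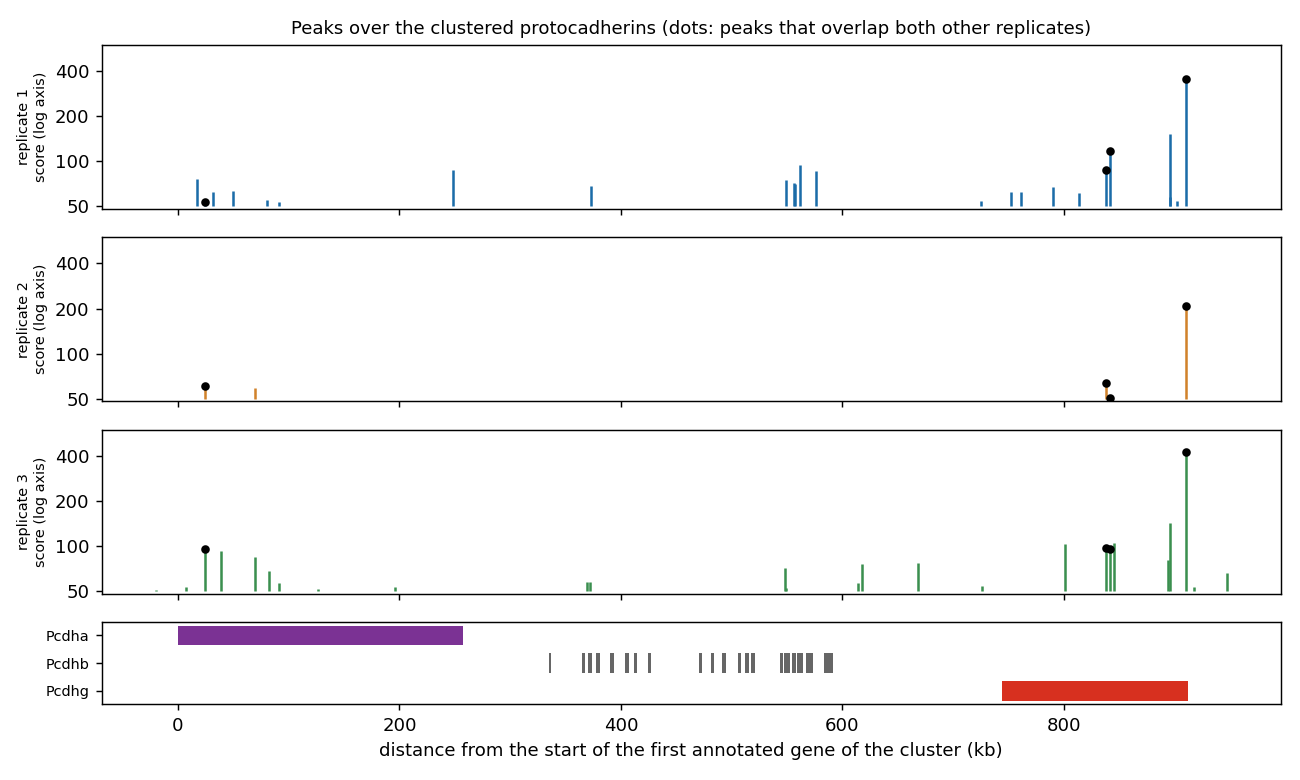
Peaks of each replicate over the clustered protocadherins, by distance from the start of the first annotated gene (kb) and score (log axis), with the Pcdha, Pcdhb and Pcdhg genes below. Dots mark peaks that overlap both other replicates, and the tallest, 354.7, 209.73 and 422.86, stand at the end of the gamma cluster.

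Of the 16 loci with no common site, 13 had a peak of at least 1 replicate. At 4 of them, Cdh5 (VE-cadherin of endothelium), Cdh19, Cdh24 and Pcdh15, 6 regions had peaks of 2 replicates. The other 9 were Cdh1, Cdh3, Cdh7, Cdh9, Cdh16, Cdh26, Pcdh11x, Pcdh12 and Pcdh20, where every region came from a single replicate. Their highest percentile was 79.2 in replicate 1, at the Pdp2 promoter in the Cdh16 window. In replicate 3 the highest of their scores was 148.17, at an intergenic peak near Pcdh12. No peak was found at Cdh17, Pcdh10 and Pcdh17. Over all windows 259 merged regions were found, 149 of them from replicate 3 alone (57.5%, against 58.7% over the genome). Peaks of every replicate lay in 37 (14.3%, against 10.5%). Pcdh19 had 12 merged regions and gave 9 of these 37, so much of the margin over the genome comes from that locus.

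By location, 19 of the 41 sites were in introns (46.3%), 9 in exons, 7 intergenic (17.1%) and 6 at promoters (14.6%). Without Pcdh19, 19 of 31 were in introns, 61.3% with a Wilson interval from 43.8% to 76.3%, and exons held 2, promoters 3 and intergenic sequence 7. The windows contain the gene bodies by construction, so the share was set beside the windows of all protein-coding genes, where 38.3% of common sites were in introns, and those of genes over 200 kb long, where 73.0% were. The intron share of the member loci thus lay between those of all genes and of long genes. The intron sites inside member genes, 18 at 12 loci, lay 15.6 to 866 kb from the 5′ end of their own gene with a median of 129 kb, the clustered one being counted from the start of Pcdhgc5. Of the 41 sites 32 were inside a member gene, 5 upstream and 4 downstream, and 38 had a member as the gene with the nearest start.

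Words were counted on both strands and compared with equally wide flanking windows centred 2000 bp away on either side. AACAAA or AACAAT was found in 24 of the 41 member sites, 58.5% (43.4% to 72.2%), in 35.4% (25.9% to 46.2%) of their flanking windows and in 53.0% of the other common sites. With all 41 sites the intervals of sites and flanks overlapped. Without Pcdh19, a step added after seeing the data, it was found in 22 of 31 sites, 71.0% (53.4% to 83.9%), against 38.7% (27.6% to 51.2%) of flanking windows. GACAAA or GACAAT was found in 11 of these 31, 35.5% (21.1% to 53.1%), against 14.5% of flanks and 38.6% of the other common sites. The wider set was ACAAAA or ACAAAG or ACAATA or ACAATG, which overlaps both. A word of it was found in 80.6% (63.7% to 90.8%) of the 31 sites, 54.8% of their flanks and 74.5% of the other common sites. With Pcdh19 kept, it was found in 27 of the 41 sites (65.9%, 50.5% to 78.4%). GACAAA or GACAAT was then found in 13 (31.7%, 19.6% to 47.0%). With Pcdh19 kept, both shares lay below those of the other common sites, which their intervals included. The share in the member sites outside Pcdh19 was above that of their flanks for each word, but over whole sites the intervals of these 31 sites and their flanks were apart only for AACAAA or AACAAT. Over 200 bp around the middle they were also apart for the wider set, 83.9% (67.4% to 92.9%) against 31 of 62 flanking windows (37.9% to 62.1%). Against the other common sites the intervals included their share, except for AACAAA or AACAAT, where the lower bound of 53.4% stands just above 53.0%.

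**Figure D5:**
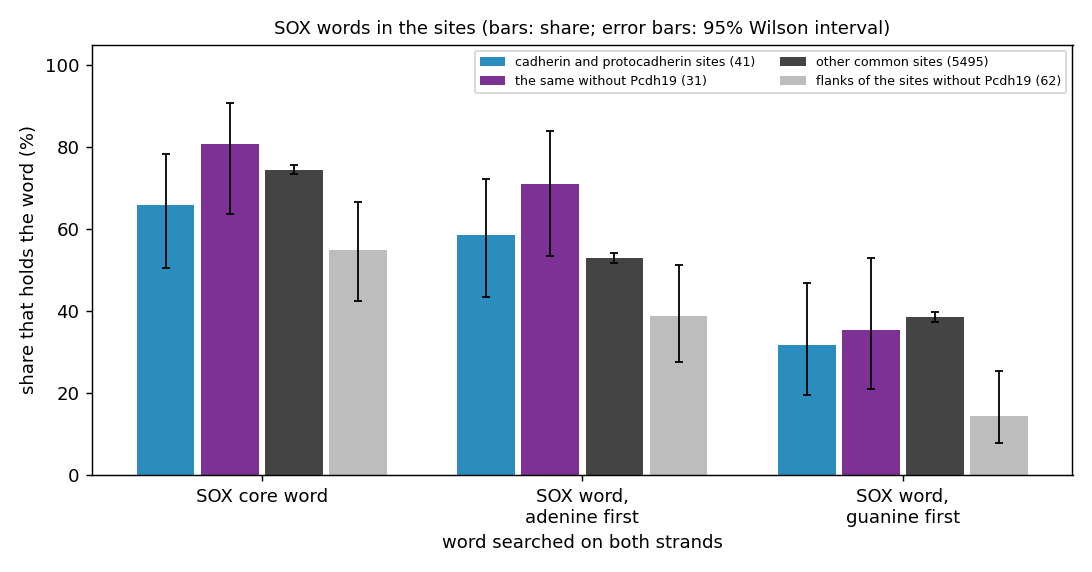
Share (%) of the 41 member sites, the 31 without Pcdh19, the other common sites and the flanking windows of the 31 that hold a SOX word, with 95% Wilson intervals. The groups from left to right are the wider core set, AACAAA or AACAAT, and GACAAA or GACAAT. The sites without Pcdh19 stand above their flanks in each, 71.0% against 38.7% for the middle group.

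The POU octamer ATGCAAAT or ATGCTAAT was found in 3 of the 41 member sites (7.32%), at Cdh2, Cdh4 and Cdh23, against 3.66% of flanks and 9.86% of the other common sites. The joined SOX/POU motif was found in 3 as well, at Cdh4, Cdh23 and Pcdh18, against none of 82 flanking windows (0%) and 6.46% of the other common sites. Both shares were close to those of the other common sites. By locus, the 19 sites of the cadherin genes held AACAAA or AACAAT in 15. This stands beside 22 of the 31 sites outside Pcdh19, 24 of all 41 and 53.0% of the other common sites. The flanks of these 19 sites were not counted apart, and the difference was not tested. These matches describe letters in a window, and do not show that SOX3 or a POU factor contacts them.

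The catenins, which link classical cadherins to actin, and other genes of the cadherin superfamily were counted from lists of partner genes. Of 7 catenin genes 2 had a common site, Ctnna3 and Ctnnd2, while Ctnnb1 (beta-catenin), Ctnna1, Ctnna2, Ctnnd1 and Jup had none. The best Ctnna3 site lay 81.5 bp from a start of Lrrtm3, a gene nested in it, and the best Ctnnd2 site lay in its intron, at percentiles of 93.8, 90.7 and 97.7. Of 26 superfamily genes found in the annotation 10 had a site, namely Fat1, Fat3, Celsr1, Celsr2, Celsr3, Dsc1, Dsc2, Dsc3, Cdhr2 and Clstn2. The 3 desmocollins shared 1, at percentiles of 73.3, 0.124 and 48.1 in replicates 1, 2 and 3. The Fat3 site stood at 92.3, 28.8 and 93.8, the best Celsr3 site at 84.0, 58.5 and 90.2. The best Cdhr2 site lay at a promoter of Rnf44, outside the Cdhr2 gene. Celsr1, a Flamingo cadherin of planar cell polarity, had its site in an intron at percentiles of 99.4, 99.1 and 99.8. The giant cadherin Fat1 had its best site in an intron at 98.5, 97.6 and 99.3. The Celsr2 window had a site at 99.8, 99.3 and 99.9, in an intron of the neighbouring gene Sars. Both shares, 28.6% of catenins and 38.5% of the superfamily genes, stand beside the 28.7% of all genes.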

How the data were processed

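SOX3 ChIP-seq was analysed in 3 biological replicates. The authors aligned 50 bp reads to mm9 with Bowtie (version 1.0.0 in the submitters' processing notes), called peaks in each replicate with MACS (version not given in the sources used here) at a bandwidth of 300 and a p-value threshold of 1e-05 against input, and deposited 1 list per replicate. The deposited score was read as −log10 of the p-value times 10, not normalized between libraries. This was inferred from the lowest score, 50, and the threshold, as no source used here states it. Peaks were not called again.

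Genes came from GENCODE vM1 on NCBIM37, the assembly of mm9. Sites with the middle at most 2000 bp from a coding transcript's start were promoter sites, and the others were classed as exon, intron or intergenic from all transcripts. Intron numbers are those of the coding transcript with the most exons. Mostly multi-copy means that more than 50% of the 50-base sequences of a site occur in more than 1 place. Intervals are 95% Wilson or exact Poisson intervals. Word counts leave out 1 common site with unknown bases.

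The members and lists were chosen with earlier results of these data known. All loci with a common site are named. Scores and percentiles or their lowest value are given for the 12 sites with the highest lowest percentile and for Cdh2, scores for the other Cdh4 and clustered sites and, as a range, for Cdh1, and sequences for up to 10 loci, of which 2 are not reported here. Alternatives tried were p-values of 1e-10 or less, equal numbers of peaks (8096 per list), a reciprocal overlap of 50%, windows of 0, 10 and 100 kb, each replicate left out, nearest start, promoters of 1000 and 5000 bp, and word windows of 200 bp. Leaving out Pcdh19 or multi-copy sites and counting merged regions were added after seeing the data. The steps were tested on simulated data and run in Python 3.11.15 with numpy 2.4.6, pandas 2.3.3, matplotlib 3.10.9, scipy 1.17.1, pysam 0.24.0 and numba 0.67.0.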

Additional observations from a re-analysis of the deposited data

How the results depend on the processing

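No comparison between groups was made, and the counts have no test. At scores of 100 or more, read as p-values of 1e-10 or less, the common sites fell to 26 and their density to 1.91 per Mb, because fewer peaks were used, and 15 loci had a site against 15.2% of all genes. With Pcdh19 left out the intron share was 61.3%, since its sites lie on exons. Leaving out 1 replicate in turn gave 20 to 23 loci with a site (23, 23 and 20 without replicates 1, 2 and 3, against 37.3%, 39.3% and 29.4% of all genes), 41 to 55 sites, 3.02 to 4.05 sites per Mb, 49.1% to 58.5% of sites with AACAAA or AACAAT and 45.5% to 52.2% in introns. With the gene body alone 14 loci had a site, against 8.37% of genes, and within 100 kb 23 loci, against 42.1%. The shares of genes given in this paragraph are not matched for length, and the member loci were longer. Per Mb of gene body the member loci, Pcdh19 included, held 3.17 sites (2.17 to 4.48) against 2.44 over all protein-coding genes. The assignment to the nearest start gave 24 loci and 60 sites. No share over all genes is given for this assignment, so these counts are not read against a background. The other alternatives listed moved none of these values beyond the spread set for them. No paired analysis was possible because there is only 1 group. The unknown depth limits what the lists can show: a locus with no peak is not shown to lack binding, since a weaker peak may have missed the threshold of 1e-05.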

Other observations

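Beyond the windows, 22 further common sites had a cadherin or protocadherin as the gene with the nearest start, at 12 genes. Cdh2 had 6 of them, 473 to 1250 kb from its start, and Pcdh17, which had no peak in its window, had 4, 578 to 1435 kb away. Cdh5, with no common site in its window, had 3, 228 to 304 kb away. The nearest of all was a site 59.5 kb from a start of Pcdh15. These sites were not counted above, and the gene each belongs to is not given by the peak lists.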
